A study of Mus musculus with 4 samples.

Results

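The Hox genes were taken as all genes whose symbol is Hox, a cluster letter a to d and a number, and which had a probe set annotated with that symbol alone. This gave 33 genes out of 18193 with such a probe set, and out of 39 Hox genes of the mouse RefSeq annotation. For 11 genes with several probe sets, the one with the highest mean over the arrays stood for the gene.

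Hox genes encode homeodomain transcription factors that give cells along the body axis their positional identity. They lie in 4 clusters, and within a cluster the genes are ordered as they are used from front to back. Genes of the same number in different clusters, called a paralog group, are each other's closest relatives. Adult mesenchymal cells commonly keep the Hox pattern of the body region they came from. In the kidney, Hox genes of the paralog group numbered 11 are known for their part in forming the metanephros, the embryonic precursor of the adult organ.

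The samples were 4 one-colour oligonucleotide arrays of total RNA from cells described as mouse mesangial cells, the contractile support cells of the glomerulus. In 2 of them the cells had received the fibrosis-promoting cytokine TGF-beta1 (transforming growth factor beta 1), and in the other 2 the cells are described as low glucose. The sources used here state neither dose, time, strain nor the glucose level of the TGF-beta1 cultures, nor whether arrays of 1 group had separate cultures behind them. The effect of TGF-beta1 and that of glucose thus cannot be told apart, and a p-value reflects the spread of these arrays alone, possibly a technical one.

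The arrays fell into 2 array pairs, each with 1 array of either group. TGF-beta1 replicate 2 and low glucose replicate 1 (array pair 1) differed by a mean of 0.0533 on the log2 scale over 18 probe sets of hybridisation spike-ins, control transcripts that hold no RNA of the cells. TGF-beta1 replicate 1 and low glucose replicate 2 (array pair 2) differed by 0.0887, and arrays of different pairs by at least 0.969. The array pair was therefore a block in the test. Of the markers fixed for mesangial cells, 3 of 10 (Tagln, Cnn1 and Mcam) exceeded the array background described below on all 4 arrays. Des did so on 3, Acta2 on 2, Pdgfrb on 1 and Itga8, Gata3, Cspg4 and Thy1 on 0. Those of endothelium did so in 0 of 6 genes, of fibroblasts in 0 of 5, of podocytes in 2 of 4 (Nphs1 and Podxl), of leukocytes in 1 of 6 (Csf1r) and of renal tubule in 3 of 8 (Cdh16, Lrp2 and Epcam). Most markers of the labelled cell type were thus not above background on every array, and 3 markers of tubule epithelium were. Over all 18193 genes the share above it on all 4 arrays was 47.3%, and these counts do not settle which cells were present. The Epcam probe set, whose name marks it as one that may match other sequences, followed the array pair. It read 117 and 339 in TGF-beta1 and 314 and 112 in low glucose. All 9 measured TGF-beta1 response genes passed the test described below, 6 upwards and 3 downwards, for example Pmepa1, which restrains SMADs, at 1.29 ± 0.082. Over all 13564 tested genes 18.6% passed. In the fit without the block, also described below, 0 of all tested genes passed, these 9 included.

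Transcripts of the Hoxa, Hoxb and Hoxc clusters were above the array background in these cultures, while at the level used here no Hoxd gene was so on all 4 arrays. The background of an array was the 95th percentile of 84 probe sets for olfactory, vomeronasal, taste and trace amine receptors, genes that are silent in most tissues outside the sense organs. This was an intensity of 90.2 and 165 on TGF-beta1 replicates 1 and 2, and of 161 and 86.4 on low glucose replicates 1 and 2. Intensities here are the deposited linear values. Of the 33 Hox genes, 14 (42.4%) exceeded it on all 4 arrays, 5 on some arrays and 14 on none. Over all 18193 genes the share above it on all 4 arrays was 47.3%. An intensity below this level is a bound on the probe set, not evidence that the gene is silent, and intensities of different probe sets are not compared with each other.

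**Figure D1:**
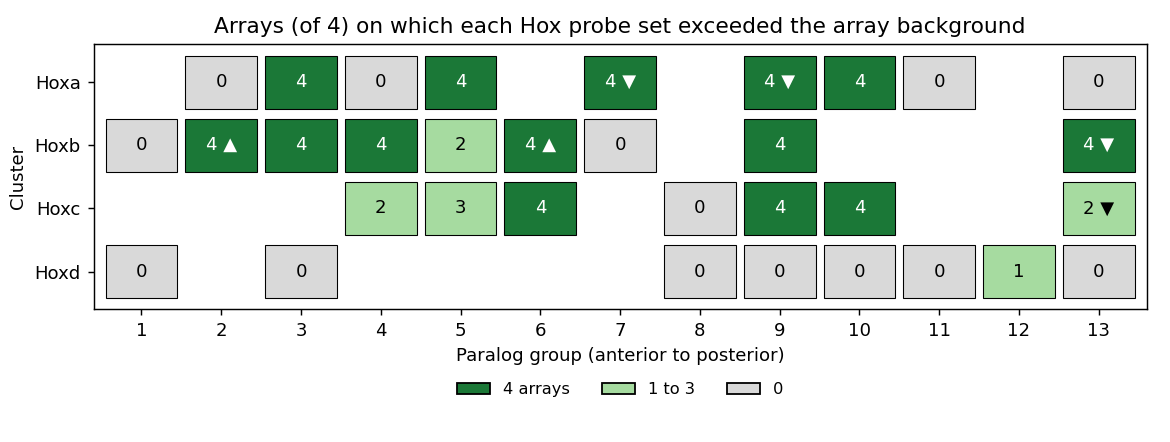
Number of arrays, of 4, on which the probe set of each Hox gene exceeded the receptor background of that array, by cluster (rows) and paralog group (columns). Triangles mark the 2 genes that rose and the 4 that fell in TGF-beta1 in the blocked fit. None of the 8 Hoxd genes shown exceeded the background on all 4 arrays.

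By cluster, 5 of 9 Hoxa genes, 6 of 9 Hoxb genes, 3 of 7 Hoxc genes and 0 of 8 Hoxd genes were above background on all 4 arrays. The Hoxd genes included Hoxd9, whose paralogs Hoxa9, Hoxb9 and Hoxc9 were above it on all 4, and Hoxd10, whose paralogs Hoxa10 and Hoxc10 were. In the Hoxd cluster a single value exceeded the background, that of Hoxd12 at 90.8 on TGF-beta1 replicate 1, and the other 3 arrays gave 79.6, 72.3 and 76.8. Hoxd1, at the anterior end, had 12.1 and 15.2 in TGF-beta1 and 13.6 and 18.3 in low glucose, far below the background of each array. Hoxa11, of the paralog group known from kidney formation, read 56.2 and 91.3 in TGF-beta1 and 97.6 and 49.4 in low glucose, below background on every array. Hoxd11 was below it as well, at 53.6 and 43.1 in TGF-beta1 and 43.5 and 47.9 in low glucose. The Hoxc gene of this paralog group was not among the genes measured, so the group was not covered in full.

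The share above background was much the same along the clusters. It was 3 of 7 genes in the anterior paralog groups 1 to 3, 5 of 12 in the central groups 4 to 8 and 6 of 14 in the posterior groups 9 to 13. The most posterior of them was Hoxb13, a gene best known from the tail bud and the prostate. The 3 genes of group 13 in the other clusters were Hoxa13 and Hoxd13, below background on all 4 arrays, and Hoxc13, above it on 2.

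The RefSeq sequences upstream of 19 of the 33 genes were at hand (21 start sites, build GRCm38.p6). Polycomb proteins, which keep Hox genes silent, are known to gather at CpG-rich DNA, so 3 of these windows of 250 bases before the start site are shown, 5′ to 3′ on the gene's strand, with CG dinucleotides in capitals. Hoxa7 (chr6:52218574-52218823, minus strand) and Hoxa9 (chr6:52227371-52227620, minus strand) were above background and fell with TGF-beta1, and Hoxd9 (chr2:74697513-74697762, plus strand) is the paralog of Hoxa9 in the Hoxd cluster.
Hoxa7: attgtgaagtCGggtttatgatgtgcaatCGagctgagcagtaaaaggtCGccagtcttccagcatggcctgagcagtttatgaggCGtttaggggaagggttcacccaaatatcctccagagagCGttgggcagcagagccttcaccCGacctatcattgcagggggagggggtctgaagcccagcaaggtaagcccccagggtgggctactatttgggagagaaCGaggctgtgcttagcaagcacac
Hoxa9: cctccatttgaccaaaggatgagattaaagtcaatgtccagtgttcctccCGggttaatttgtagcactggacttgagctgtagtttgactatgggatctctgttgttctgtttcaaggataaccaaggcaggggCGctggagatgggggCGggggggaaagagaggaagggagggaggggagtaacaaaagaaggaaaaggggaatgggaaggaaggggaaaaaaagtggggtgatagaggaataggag
Hoxd9: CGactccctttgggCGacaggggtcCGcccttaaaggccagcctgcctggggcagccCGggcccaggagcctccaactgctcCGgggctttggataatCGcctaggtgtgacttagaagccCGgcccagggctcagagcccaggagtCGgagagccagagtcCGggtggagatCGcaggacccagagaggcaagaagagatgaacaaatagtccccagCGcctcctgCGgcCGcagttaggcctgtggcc

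The Hoxd9 window held 13 CG dinucleotides, against 3 for Hoxa9, and Hoxa7 held 7. The windows shown are examples and do not stand for the rest. The other windows of genes above background on all 4 arrays held 28 (Hoxa5), 18 (Hoxa3), 14 (Hoxb4) and 20 and 7 (Hoxa10). Those of genes below it on all 4 held 2 to 35. Over the Hox windows the median number was 14 in 7 windows of genes above background on all 4 arrays and 13 in 12 windows of genes below it on all 4, against 6 over 32851 windows of all genes. The 2 remaining windows, of Hoxc4 and Hoxd12, held 8 and 10. No association with intensity was tested, and 14 Hox genes had no window. The core letters bound by SMAD proteins, CAGAC on either strand, stood once in the Hoxa7 window and not in that of Hoxa9 or Hoxd9, in 6 of the 21 Hox windows and in 42.2% of all windows. It was in 3 of the 7 windows of genes above background and 1 of the 12 of genes below it. The letters TGATNNAT on either strand, a composite of Hox and PBX recognition, stood in none of the 3, in 3 of the 21 Hox windows, all 3 of genes below background, and in 7.68% of all windows. Either motif can share bases with a CG dinucleotide. These counts describe the windows and show no binding.

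Between TGF-beta1 and low glucose the Hox genes moved both ways and by little. The tested genes were those whose mean log2(intensity + 46.9) after quantile normalisation reached the 40th percentile of all probe sets, which 23 Hox genes did and 10 did not. In the limma fit that took array pairs as blocks, 2 of the 23 rose, 4 fell and 17 did not pass an adjusted p of 0.05. These 6 genes are 26.1% of the tested Hox genes, against 18.6% of all 13564 tested genes, of which 7.94% rose and 10.6% fell. The median difference of the 23 genes was -0.0015 (-0.0022 in array pair 1 and 0.037 in array pair 2), against -0.00021 over all tested genes. Their median absolute difference was 0.0947, against 0.0873 over all. Rose and fell stand here for an adjusted p under 0.05 in the blocked fit, differences are TGF-beta1 minus low glucose on the log2(intensity + 46.9) scale, which understates changes of dim genes, and ± gives the standard error of that fit with 2 arrays per group.

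That fit has 1 residual degree of freedom and took its spread from genes of like brightness. Without the block, limma called 0 of the 23 Hox genes and 0 of all 13564 genes, with 0 Hox genes and 269 genes (1.98%) at an unadjusted p under 0.05. With the block and the prior of the unblocked fit, 0 genes were called as well. All calls given here, above and below, therefore rest on the borrowed spread. Values in parentheses beside the calls below are the differences within array pairs 1 and 2.

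The 2 genes that rose were Hoxb2 and Hoxb6. Hoxb2, an anterior gene that patterns the hindbrain and its neural crest, had intensities of 679 and 743 in TGF-beta1 and of 592 and 585 in low glucose. Both TGF-beta1 arrays lay above both low glucose arrays. The difference was 0.26 ± 0.082, or 1.19-fold (0.31 in array pair 1 and 0.21 in array pair 2), with an adjusted p of 0.0139 in the blocked limma fit and an unadjusted p of 0.146 in limma without the block. Hoxb6, a central gene of trunk and limb mesoderm, had 446 and 479 in TGF-beta1 and 419 and 335 in low glucose. Again the groups did not overlap. Its difference was 0.28 ± 0.077, or 1.21-fold (0.19 and 0.36 within array pairs 1 and 2), with an adjusted p of 0.00342 in the blocked limma fit and an unadjusted p of 0.182 in limma without the block. In RefSeq, Hoxb2 overlaps the antisense gene Hoxb3os and Hoxb6 overlaps Hoxb5os, and the part of overlapping transcripts in these signals was not tested. The Hoxb5os probe set, above background on 3 arrays, moved the other way from Hoxb6, with 343 and 123 in TGF-beta1 and 190 and 530 in low glucose. It fell by 0.54 ± 0.067 (-0.53 and -0.56), with an adjusted p of 4.98e-14 in the blocked limma fit.

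The 4 genes that fell were Hoxb13, Hoxa9, Hoxc13 and Hoxa7, 3 of them posterior. Hoxb13 had intensities of 480 and 380 in TGF-beta1 and of 544 and 578 in low glucose, and the groups did not overlap. It fell by 0.36 ± 0.079, to 0.779-fold (-0.47 and -0.25 within array pairs 1 and 2), with an adjusted p of 9.97e-05 in the blocked limma fit and an unadjusted p of 0.116 in limma without the block. This was the largest difference among the tested Hox genes.

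Hoxa9, a posterior gene needed for blood stem cells and for limb and trunk patterning, had 922 and 649 in TGF-beta1 and 823 and 1146 in low glucose. The 2 groups overlapped and array pair 2 read higher than array pair 1, while within each pair the TGF-beta1 array was the lower one. Hoxa9 fell by 0.30 ± 0.082, to 0.809-fold (-0.31 and -0.30 within the pairs), with an adjusted p of 0.00241 in the blocked limma fit and an unadjusted p of 0.315 in limma without the block. The second probe set of Hoxa9, also above background on all 4 arrays, differed by -0.077 and did not pass (adjusted p = 0.497 in the blocked limma fit over all kept probe sets). The 2 probe sets of Hoxa9 thus had the same sign and different sizes.

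Hoxa7, a central gene of the trunk, had 256 and 230 in TGF-beta1 and 290 and 279 in low glucose, with no overlap between the groups. It fell by 0.21 ± 0.068, to 0.866-fold (-0.31 and -0.11 within the pairs), with an adjusted p of 0.0168 in the blocked limma fit and an unadjusted p of 0.303 in limma without the block. Hoxc13, known for its part in hair and nail formation, had 105 and 96.5 in TGF-beta1 and 121 and 126 in low glucose. Its intensities on the arrays of array pair 1, 96.5 in TGF-beta1 and 121 in low glucose, were below the background there. Hoxc13 fell by 0.22 ± 0.068 (-0.25 and -0.20 within the pairs), with an adjusted p of 0.00845 in the blocked limma fit and an unadjusted p of 0.264 in limma without the block.

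**Figure D2:**
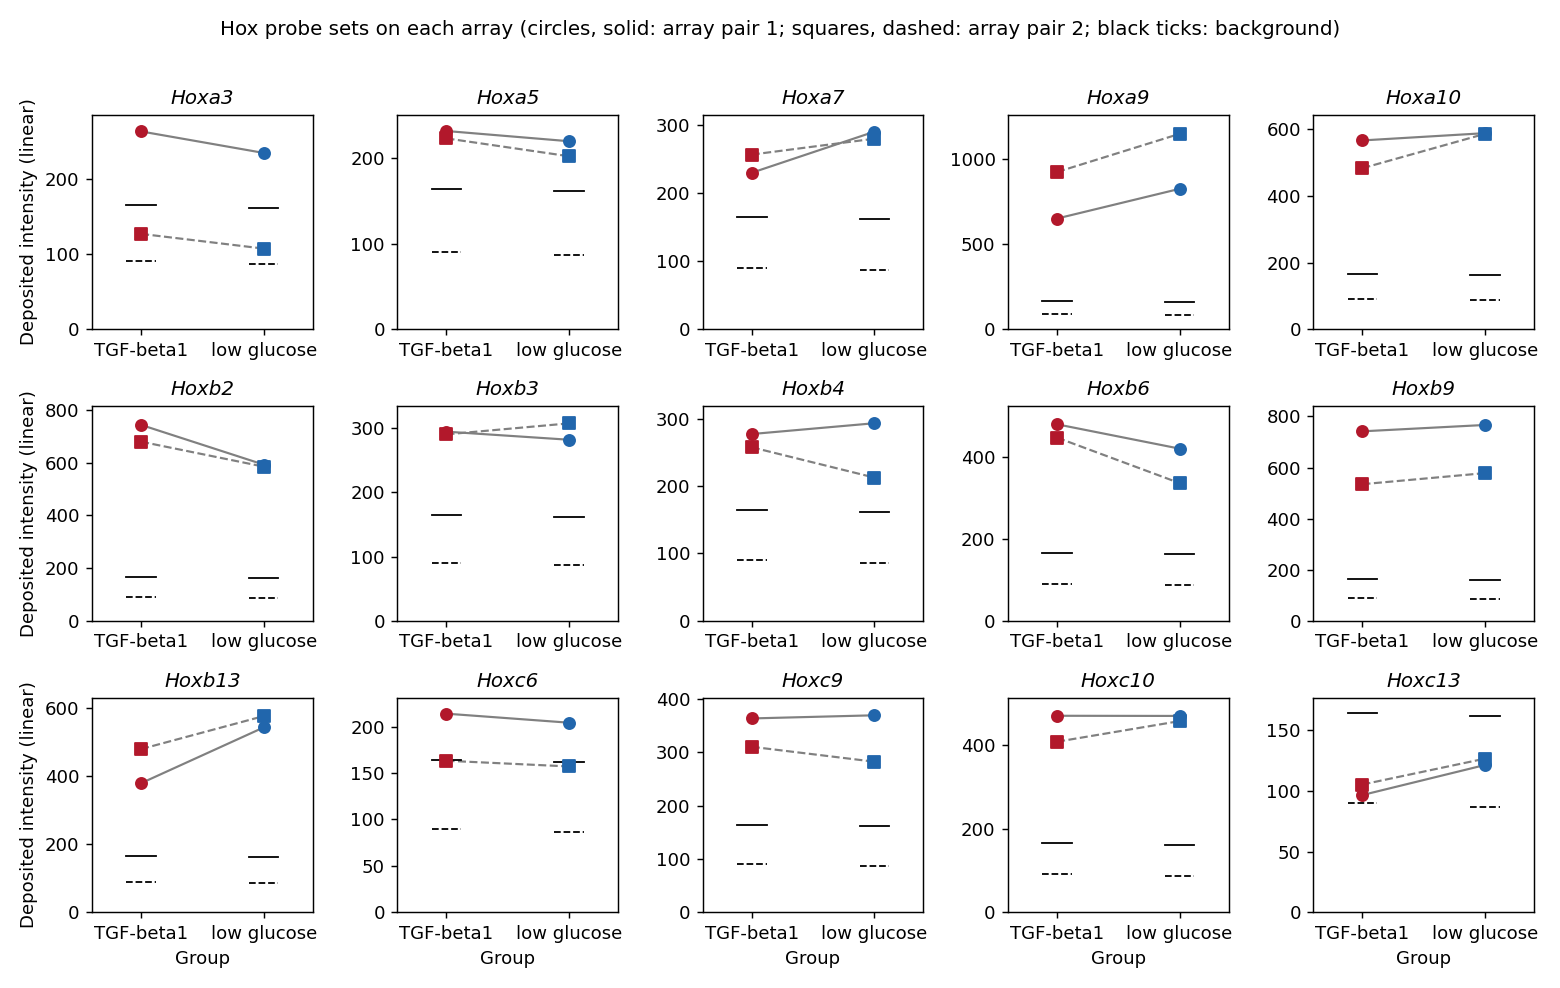
Deposited intensity of the 14 Hox genes above background on all 4 arrays and of Hoxc13, in TGF-beta1 (red) and low glucose (blue); lines join the arrays of array pair 1 (circles, solid) and of array pair 2 (squares, dashed), and black ticks give the background of each array. The lines of Hoxa7, Hoxa9, Hoxb13 and Hoxc13 lie lower on the TGF-beta1 side in both pairs, and those of Hoxb2 and Hoxb6 higher.

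The other genes of the Hoxa cluster that were above background did not pass. Hoxa10, a posterior gene of the reproductive tract and limb, had 483 and 566 in TGF-beta1 and 588 and 586 in low glucose and differed by -0.16 ± 0.081 (adjusted p = 0.161 in the blocked limma fit). Hoxa3, which shapes the pharyngeal region, had 127 and 262 in TGF-beta1 and 234 and 107 in low glucose and differed by 0.15 ± 0.064, with an adjusted p of 0.0764 in the blocked limma fit and 0.16 and 0.14 in array pairs 1 and 2. The values of Hoxa3 thus followed the array pair, as did its background. Of its other probe sets, that above background on all 4 arrays differed by 0.045. Those below it on every array differed by 0.10 and -0.13. In RefSeq the Hoxa3 gene overlaps Hoxa4, Hoxa5 and Hoxa6, and which transcript a probe set reads was not tested.

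Hoxa5, a central gene of lung and trunk, gave opposite signs on its 2 probe sets. The brighter, whose name marks it as one that may match other sequences, read 223 and 232 in TGF-beta1 and 220 and 202 in low glucose and differed by 0.085 ± 0.065 without passing. The other read 192 and 155 in TGF-beta1 and 183 and 268 in low glucose, with a difference of -0.29 ± 0.065 (-0.20 and -0.37 within the pairs; adjusted p = 0.000208 in the blocked limma fit over all kept probe sets). No direction is given here for Hoxa5.

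In the Hoxb cluster Hoxb9, a posterior gene of the thorax, had 535 and 742 in TGF-beta1 and 767 and 578 in low glucose and differed by -0.07 ± 0.082. Hoxb3 had 291 and 295 in TGF-beta1 and 282 and 308 in low glucose and differed by -0.002 ± 0.07. For both genes the difference was smaller than its standard error. Hoxb4, which supports blood stem cell growth, had 258 and 277 in TGF-beta1 and 293 and 213 in low glucose and differed by 0.073 ± 0.068, with opposite signs in the pairs (-0.059 and 0.21). Its second probe set differed by 0.19 ± 0.067 (adjusted p = 0.0352 in the blocked limma fit over all kept probe sets). Hoxb5, above background on 2 arrays, had 96.3 and 93.4 in TGF-beta1 and 107 and 106 in low glucose and differed by -0.14 ± 0.07 (adjusted p = 0.173 in the blocked limma fit). Both TGF-beta1 arrays read lower as deposited, although the groups overlapped after normalisation.

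The Hoxc genes above background varied within the spread of the test. Hoxc10, a posterior gene of the lumbar region, had 408 and 470 in TGF-beta1 and 469 and 457 in low glucose and differed by -0.064 ± 0.078. Hoxc9 had 310 and 364 in TGF-beta1 and 370 and 282 in low glucose and differed by 0.055 ± 0.072. Hoxc6 had 163 and 214 in TGF-beta1 and 204 and 157 in low glucose and differed by 0.045 ± 0.064. All 3 had differences below 1 standard error. The other probe sets of Hoxc6, above background on 2 and 1 arrays, had the opposite sign, at -0.12 and -0.13. Hoxc4 and Hoxc5, above background on 2 and 3 arrays, differed by -0.037 ± 0.064 and 0.14 ± 0.064 and did not pass. The other probe sets of Hoxc5, below background on every array, differed by -0.11 and -0.034.

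**Figure D3:**
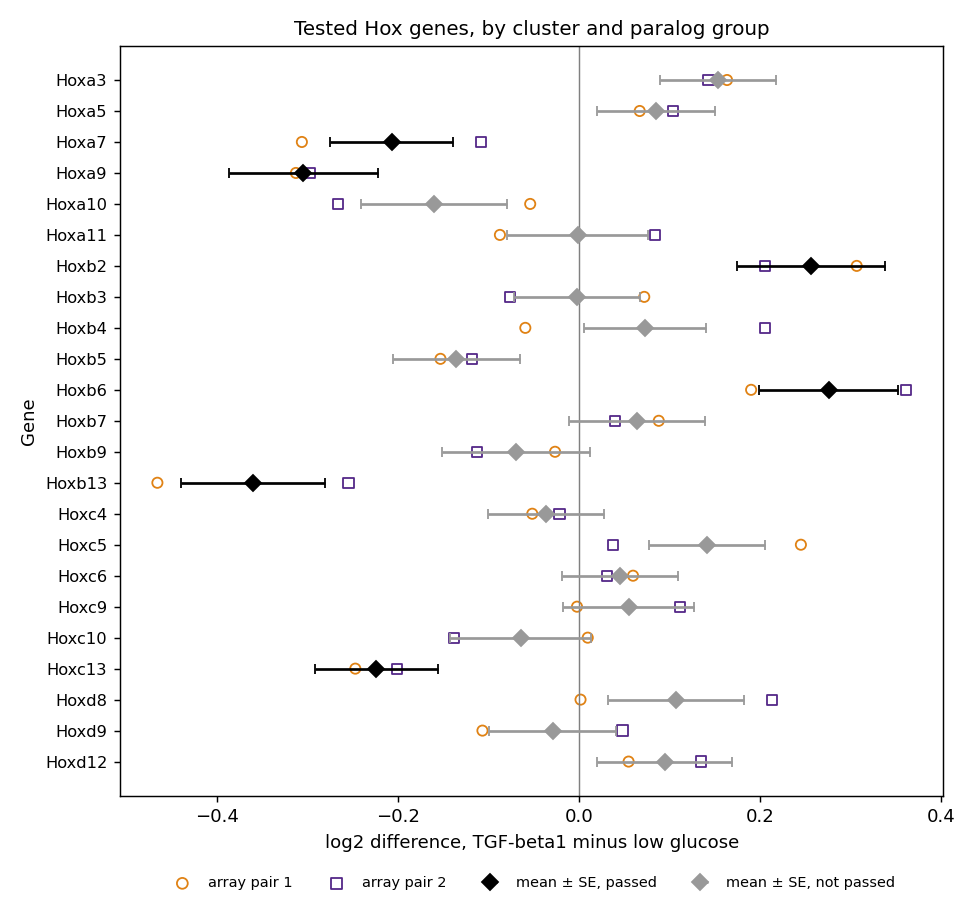
Log2 difference, TGF-beta1 minus low glucose, of the 23 tested Hox genes with its standard error (diamonds; black where the adjusted p was under 0.05 in the blocked fit) and the difference within array pair 1 (circles) and array pair 2 (squares). The 6 genes that passed range from -0.36 (Hoxb13) to 0.28 (Hoxb6).

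The remaining tested genes, Hoxa11, Hoxb7, Hoxd8, Hoxd9 and Hoxd12, were below background on at least 3 arrays, and their differences ran from -0.029 (Hoxd9) to 0.11 (Hoxd8). Hoxd8 had 78.6 and 92.8 in TGF-beta1 and 89.8 and 60.8 in low glucose. The 10 genes not tested were Hoxa2, Hoxa4, Hoxa13, Hoxb1, Hoxc8, Hoxd1, Hoxd3, Hoxd10, Hoxd11 and Hoxd13. All 10 were below background on all 4 arrays. Their differences, given as a description, ran from -0.20 (Hoxd13) to 0.094 (Hoxd10).

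By region, with the division set after the values were seen, 8 of the 10 tested posterior genes differed negatively and 2 positively, and their median was -0.067, or -0.071 in array pair 1 and -0.13 in array pair 2. Of the 10 central genes 3 differed negatively and 7 positively, and their median was 0.069, or 0.031 and 0.039 by pair. The 3 tested anterior genes had a median of 0.15. The negative posterior genes included Hoxa11 at -0.0015 and Hoxd9 at -0.029, both below background on every array. In the posterior group 3 genes fell and none rose, in the central group 1 fell and 1 rose, and in the anterior group 1 rose. Over all tested genes 10.6% fell and 7.94% rose, and no pattern by region is read from such small counts. Whether the regions differ from each other was not tested.

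The arrays of the 2 groups did not overlap for 7 of the 23 genes (30.4%), 4 higher and 3 lower in TGF-beta1, against 20.8% of all tested genes, of which 9.78% were higher and 11.1% lower. The 4 were Hoxa5, Hoxb2, Hoxb6 and Hoxd8, and the 3 were Hoxa7, Hoxa10 and Hoxb13. This was judged on log2 values after normalisation. Hoxd8, below background on every array, was apart by 7.014 against 7.012 there, and its groups overlapped as deposited. The groups of Hoxb5, Hoxc13 and Hoxd12 did not overlap as deposited but did so after normalisation. The sign was the same in both array pairs for 17 of the 23 (73.9%), against 68.3% of all tested genes. Differences between the array pairs were larger than those between the groups. The median absolute difference of array pair 2 from array pair 1 was 0.216 over the 23 Hox genes, against their 0.0947 between TGF-beta1 and low glucose, and 0.243 over all tested genes. The pair term passed for 14 of the 23 (60.9%), against 66.7% of all tested genes. Hoxc5 differed most between the pairs, with 90.8 and 84.7 in array pair 2 (TGF-beta1, then low glucose) and 243 and 202 in array pair 1.

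Hox proteins bind DNA with TALE homeodomain partners. Of 9 tested genes of this class 1 rose and 1 fell, a share near the 18.6% called among all tested genes. Tgif1, which binds TGF-beta-activated SMADs as a co-repressor, had 987 and 842 in TGF-beta1 and 485 and 552 in low glucose and rose by 0.76 ± 0.082 (0.74 and 0.79 within the pairs). Meis2, a direct Hox partner, had 217 and 135 in TGF-beta1 and 170 and 237 in low glucose and fell by 0.19 ± 0.064 (-0.28 and -0.10). Meis2 was above background on 3 arrays. Pbx2 at -0.18 ± 0.074 and Pbx3 at -0.15 ± 0.073 did not pass, nor did Meis1, Meis3, Pbx4, Pknox1 and Tgif2. The rise of Tgif1 was larger than that of any tested Hox gene.

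Polycomb and Trithorax proteins hold Hox genes in their silent or active state. Of 28 measured genes 25 were above background on all 4 arrays, against 47.3% of all genes. Of the 28, 3 rose, 3 fell and 22 did not pass, a share near the 18.6% called among all tested genes. Phc2, a Polycomb subunit, rose by 0.36 ± 0.082 (0.27 and 0.45), Phf19, which guides Polycomb to chromatin, by 0.32 ± 0.066 (0.14 and 0.51) and Wdr5, a Trithorax core subunit, by 0.23 ± 0.082 (0.22 and 0.24). Without the block, leaving out TGF-beta1 replicate 2 gave -0.061 for Phc2 and -0.0014 for Wdr5, leaving out low glucose replicate 2 gave -0.15 and -0.014, and leaving out TGF-beta1 replicate 1 gave -0.066 for Phf19. Cbx6 fell by 0.45 ± 0.082 (-0.46 and -0.43), Cbx7 by 0.19 ± 0.064 (-0.23 and -0.14) and Ezh1, a methyltransferase of Polycomb, by 0.23 ± 0.081 (-0.23 in both). Cbx6 and Cbx7 are chromobox readers of the Polycomb mark, and of the other tested members Cbx2 and Cbx8 differed by -0.18 ± 0.071 and -0.13 ± 0.066 and did not pass. Ezh2, at -0.017 ± 0.081, Eed and Suz12, the core of that complex, did not pass either.

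Retinoic acid is the signal that sets anterior Hox genes in the embryo. Of 14 tested genes of its pathway 1 rose and 2 fell, a share near the 18.6% called among all tested genes. Rdh10, which oxidises retinol to retinal, had 1344 and 1001 in TGF-beta1 and 567 and 841 in low glucose and rose by 0.71 ± 0.082 (0.76 and 0.65 within the pairs). Dhrs3, which turns retinal back to retinol, had 108 and 108 in TGF-beta1 and 170 and 175 in low glucose and fell by 0.51 ± 0.065 (-0.52 and -0.50). Dhrs3 was above background on 3 arrays. Aldh1a1, which makes retinoic acid from retinal, fell by 0.48 ± 0.068 (-0.36 and -0.60) and was above background on 2 arrays. The receptor Rarg at 0.18 ± 0.076 and Rxra at -0.16 ± 0.069 did not pass, and Rarb and Cyp26b1 were below background on all 4 arrays.

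**Figure D4:**
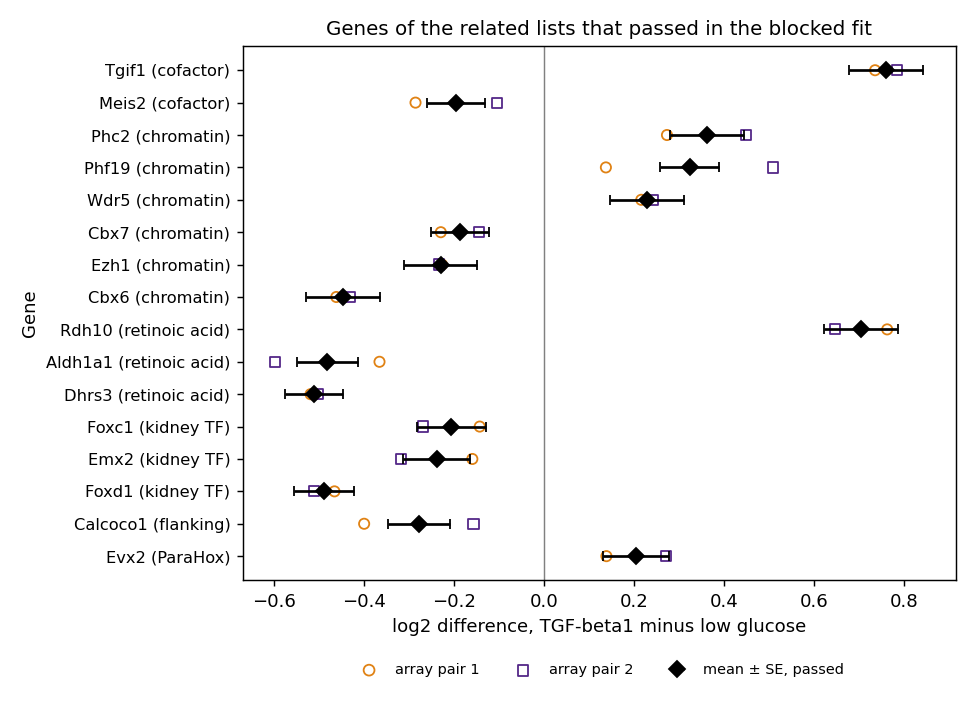
Log2 difference, TGF-beta1 minus low glucose, of the genes of the related lists that passed in the blocked fit, with standard errors (diamonds) and the difference within array pair 1 (circles) and array pair 2 (squares). Tgif1 and Rdh10 rose the most, and Dhrs3, Foxd1, Aldh1a1 and Cbx6 fell the most.

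Other positional transcription factors of the kidney were above background in part. Of 17 measured, 5 were so on all 4 arrays (Emx2, Eya1, Foxc1, Pax8 and Sall1), against 47.3% of all genes. Another 9 were above it on none, among them Wt1, Osr1, Tcf21 and Gata3. Among 10 tested genes 0 rose and 3 fell, against 7.94% and 10.6% of all tested genes, and nothing particular to the list is read from these counts. Foxd1, the factor of the stroma from which mesangial cells descend, fell by 0.49 ± 0.066 (-0.46 and -0.51), Emx2 by 0.24 ± 0.075 (-0.16 and -0.32) and Foxc1 by 0.20 ± 0.077 (-0.14 and -0.27). Foxd1 had 111 and 85.6 in TGF-beta1 and 135 and 181 in low glucose and was above background on 2 arrays. In the limb and body wall list 0 of 12 tested genes passed and 2 of 19, Twist2 and Msx1, were above background on all 4 arrays. In the head and forebrain list 0 of 6 passed and 1 of 15, Vax2, was above background on all 4. In both lists the share above background on all 4 arrays was under the 47.3% of all genes.

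The Cdx and ParaHox genes with the Evx genes at the ends of 2 Hox clusters were above background on all 4 arrays in 0 of 8 cases. Over all genes that share was 47.3%. Among 5 tested genes of this list 1 rose and 0 fell, against 7.94% and 10.6% of all tested genes. Evx2, next to the Hoxd cluster, passed with 0.21 ± 0.073 (0.14 and 0.27) although it was below background on every array, at 88.2 and 113 in TGF-beta1 and 94.3 and 64.4 in low glucose. Of 17 tested genes that flank the Hox clusters 0 rose and 1 fell, Calcoco1 by 0.28 ± 0.069 (-0.40 and -0.16). Nothing particular to either list is read from these counts, given the shares of 7.94% and 10.6% over all tested genes. The flanking genes on either side of the Hoxd cluster, Atf2 and Mtx2, were above background on all 4 arrays, at 568 and 570 in TGF-beta1 and 560 and 646 in low glucose for Atf2. Mtx2 had 634 and 622 in TGF-beta1 and 663 and 760 in low glucose. Lnpk, also beside the Hoxd cluster, was above background on 3 arrays. Neighbours of the Hoxd cluster thus lay on both sides of the background. The median difference was 0.027 for the cofactors, 0.043 for the Cdx and ParaHox list, -0.037 for the chromatin regulators, 0.075 for the retinoic acid pathway and -0.11 for the kidney factors, against -0.00021 over all tested genes. It was 0.067 for both the limb and body wall list and the head and forebrain list, and -0.082 for the flanking genes.

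Some markers of cell types moved in the same comparison. Of 5 tested tubule markers Cdh16 fell by 0.31 ± 0.074 (-0.42 and -0.20) and Lrp2 by 0.29 ± 0.077 (-0.35 and -0.24), and 3 did not pass. Of 3 tested podocyte markers Synpo fell by 0.58 ± 0.065 (-0.64 and -0.53), Podxl rose by 0.23 ± 0.072 (0.25 and 0.22) and Nphs1 did not pass. Synpo was above background on 2 arrays. Of 5 tested leukocyte markers Csf1r fell by 0.38 ± 0.079 (-0.35 and -0.41) and 4 did not pass. Of 8 tested mesangial markers 3 rose, Tagln, Mcam and Acta2, and 5 did not pass. Acta2 was above background on 2 arrays. The 1 endothelial and 4 fibroblast markers tested did not pass. Over all tested genes 18.6% were called, 7.94% upwards and 10.6% downwards, and nothing particular to a cell type is read from these counts.

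The summed intensity of the 8 tubule markers was 2464 and 2576 in TGF-beta1 and 3176 and 2786 in low glucose, of which Cdh16 alone gave 1682 and 1495 in TGF-beta1 and 2014 and 1919 in low glucose. That of the 10 mesangial markers was 1638 and 1814 in TGF-beta1 and 1425 and 1201 in low glucose. Tagln, also one of the TGF-beta1 response genes, gave 489 and 405 of it in TGF-beta1 and 207 and 239 in low glucose, so these sums turn largely on single genes. The sum over 6 leukocyte markers was 1311 and 1659 in TGF-beta1 and 2000 and 1629 in low glucose. Csf1r alone gave 952 and 1269 of it in TGF-beta1 and 1658 and 1274 in low glucose, so this sum too turns largely on a single gene. Over 4 podocyte markers the sum was 538 and 795 in TGF-beta1 and 759 and 555 in low glucose. Groups overlapped in both lists, as they did for endothelial markers (239 and 329 in TGF-beta1, 322 and 262 in low glucose) and fibroblast markers (408 and 620 in TGF-beta1, 567 and 369 in low glucose). Fewer cells of a type and less RNA per cell cannot be told apart in such cultures, and the part of these shifts in the Hox differences was not tested.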

How the data were processed

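The authors deposited 1 linear intensity per probe set and array. How they summarised probes and scaled arrays, no source used here says. Groups came from the array titles, and replicate numbers only name arrays. The platform annotation supplied gene names: of 45037 probe sets other than 64 controls, 34945 had 1 symbol, 932 several and 9160 none here. All 33 Hox symbols were found in RefSeq (GRCm38.p6), which supplied the promoter sequences.

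From the deposited intensities, log2(intensity + 46.9) was computed, with the 25th percentile of all values as pseudocount, followed by quantile normalisation. Per gene, the probe set with the highest mean intensity was used, and those at or above the 40th percentile of mean log2 value were tested (13564 genes). Genes were tested two-sided with limma 3.58.1 (lmFit, then eBayes allowing a trend with intensity) in R 4.3.3, and p-values were adjusted by Benjamini-Hochberg over all tested genes. Figures were drawn in Python 3.11.15 with matplotlib 3.10.9. The array pair, found from the 18 spike-in probe sets, was a block. Pairing the arrays whose titles share an unnumbered repeat tag gives the same pairs. Probe sets of a gene other than its brightest were tested in the same fit over all kept probe sets. The blocked fit left 1 residual degree of freedom, and the unblocked one left 2 with a prior of 2.79. No 2 arrays shared more than 1 identical value. Precision is limited by having 4 arrays.

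The members, the related lists and the block were chosen with earlier results of these data known. Every Hox gene was named, and of the other lists up to 6 members that passed. List members named without passing, or as above or below background, were chosen after their values were seen. Alternatives were other pseudocounts, a floor, the authors' scaling, median centring, other filters, leaving out probe sets that may match several sequences, no trend, no block, another prior and leaving out each array.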

Additional observations from a re-analysis of the deposited data

Results flagged for a closer look

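2 probe sets of the clusters lie outside the rule for members and exceeded the background on all 4 arrays, so they carry signal outside the Hox counts. The probe set shared by Hoxb8 and Hoxb7 read 379 and 540 in TGF-beta1 and 484 and 459 in low glucose. The probe set of Hoxa11os, the antisense transcript that overlaps Hoxa11, read 118 and 242 in TGF-beta1 and 170 and 101 in low glucose, while that of Hoxa11 itself was below background on all 4 arrays. Hoxa11os rose by 0.29 ± 0.064 (0.45 and 0.13 within array pairs 1 and 2), with an adjusted p of 0.000109 in the blocked limma fit over all tested genes. The shared Hoxb8 and Hoxb7 probe set was not tested, having 2 symbols. A second probe set of Hoxa11os was below background on all 4.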

How the results depend on the processing

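The 6 Hox calls were the same with the other pseudocounts, the floor, the authors' scaling, median centring and no trend. With no filter 5 genes fell, the added one being Hoxd13 at -0.20, and with the filter at the 60th percentile, which left Hoxc13 untested, 3 fell. Without probe sets that may match several sequences 5 fell, the added one being Hoxa5 at -0.29. With no replicate block 0 Hox genes rose and 0 fell, and likewise with the block and the prior of the unblocked fit, where the lowest adjusted p among the 6 was 0.216 in limma. The replicate block leaves differences as they are.

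Leaving out 1 array with the block leaves the difference within the other pair, with no test; the Hox median was then 0.037 without low glucose replicate 1 or TGF-beta1 replicate 2 and -0.0022 without either of the other arrays. Without the block, leaving out each array called 0 Hox genes in either direction. The Hox median was 0.085 and -0.041 without TGF-beta1 replicates 1 and 2, and 0.096 and -0.067 without low glucose replicates 1 and 2. Hoxa9 ran from -0.57 to -0.044, Hoxa7 from -0.32 to -0.095, Hoxc13 from -0.37 to -0.077, Hoxb13 from -0.52 to -0.20, Hoxb6 from 0.15 to 0.40 and Hoxb2 from 0.21 to 0.30. The direction turned in Meis2 (0.16 without TGF-beta1 replicate 2 and 0.067 without low glucose replicate 2, lowest -0.55), in Phc2 (-0.061 and -0.15 without the same arrays, highest 0.87) and in Wdr5 (-0.0014 and -0.014 without them, highest 0.47). It also turned in Phf19 (-0.066 without TGF-beta1 replicate 1, highest 0.71) and in Aldh1a1 (0.013 without low glucose replicate 2, lowest -0.97). Leaving out 1 array unbalances the array pairs between the groups, so part of the pair difference enters these values.

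The number of Hox genes above background on all 4 arrays, 14, was 15 and 12 at the 90th and 99th percentile of the receptor probe sets, 20 at the 40th percentile of all probe sets and 13 without probe sets that may match several sequences. At the 40th percentile of all probe sets Hoxd9 was above on all 4 arrays. It had 78.4 and 128 in TGF-beta1, against levels of 62.8 and 76.5, and 138 and 72.6 in low glucose, against 74.1 and 61.0. The statement on Hoxd genes, and the contrast of Hoxd9 with its paralogs, thus depends on the level chosen. No paired analysis from replicate numbers was possible because the numbers only name arrays.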
